A study of Mus musculus with 18 samples.

Results

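The miRNA profiles of mammary tumours from AKXD strains 10, 13, 14 and 20 are described here against those of the other 14 strains of the panel, 4 of 18 libraries in all. AKXD strains are recombinant inbred mouse lines bred from the AKR/J and DBA/2J strains. Every library, in the set and outside it, came from F1 tumours of an AKXD strain crossed to FVB/N-TgN(MMTV-PyVT)634Mul, a line in which the promoter of mouse mammary tumour virus drives the polyoma virus middle T oncogene. All 18 groups therefore carry the same transgene and an FVB/N genome from that parent, and they differ in the AKXD strain alone as far as the labels say. Each strain's tumour RNA went as a pool into 1 library, which gives n = 1 per strain. How many mice a pool holds, and their age, is not stated in the labels. The 4 strains were chosen on these same values, because they stand apart on the main axis of variation among the libraries. For that reason the miRNA differences below are descriptions of measured values, with no test of the 4 against the 14. Permutation tests were run on read depth and on the constant each library was deposited with, which the choice of strains did not use.

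A miRNA is cut from a hairpin precursor in the nucleus and then in the cytoplasm, and the duplex that remains has an arm from each side of the hairpin. As a rule the guide arm is loaded into an Argonaute protein and the other arm, marked with a star in older names, is degraded. The guide pairs with messenger RNAs mainly through its seed, bases 2 to 8 from the 5′ end, so miRNAs with the same seed share many targets. In mammary tumours the miR-200 family is known for holding cells in an epithelial state, let-7 for repressing growth and stem cell genes, miR-29 for repressing collagens and other matrix genes, and the miR-17-92 and miR-106b-25 clusters for promoting proliferation.

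The sequences below are those of a selection of the miRNAs described here, grouped by whether they were higher or lower in the 4 strains. They are RefSeq mature sequences of GRCm38.p6, 5′ to 3′, with the seed in capitals. A RefSeq sequence was matched for 206 of the 281 miRNAs that were abundant enough to be compared. The first 6 were higher in all 4 strains than in each of the other 14, and miR-30a* and miR-30e* share a seed and differ at 1 of 22 positions.
miR-217: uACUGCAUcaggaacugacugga
miR-184: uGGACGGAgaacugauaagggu
miR-183: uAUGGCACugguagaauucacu
miR-200c: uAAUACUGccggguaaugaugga
miR-30a*: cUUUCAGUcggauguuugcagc
miR-30e*: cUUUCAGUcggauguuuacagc
The next 8 were lower in all 4 strains than in each of the other 14. They include the other arm of the miR-183 hairpin, and miR-24-1* and miR-24-2*, which come from 2 hairpins on different chromosomes and share a seed.
miR-183*: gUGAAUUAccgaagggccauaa
miR-96: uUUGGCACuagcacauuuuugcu
miR-190: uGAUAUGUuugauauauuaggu
miR-24-1*: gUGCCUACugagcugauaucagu
miR-24-2*: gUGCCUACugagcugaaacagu
miR-106b: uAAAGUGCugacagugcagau
miR-18a: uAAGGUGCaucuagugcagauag
miR-19b: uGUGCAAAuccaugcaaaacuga
The last 3 are the miR-29 guide arms, which lay lower at the median and overlapped the other 14 strains. They share a seed and differ after it, miR-29a and miR-29c at 1 of 22 positions and miR-29a and miR-29b at 4 of 22.
miR-29a: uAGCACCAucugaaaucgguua
miR-29b: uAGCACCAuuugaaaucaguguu
miR-29c: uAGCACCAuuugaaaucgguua

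Values are CPM, the share of a library's miRNA reads on a scale where all miRNAs sum to 1e6 before a correction per library by the trimmed mean of M values, which centres libraries on the bulk of the miRNAs. A difference is the median of log2(CPM + 1) over the 4 strains minus the median over the other 14, and the comparison took in the 281 miRNAs whose mean over the panel reached 10 CPM. Of these, 14 (4.98%) had a median at least 2-fold higher in the 4 strains and 21 (7.47%) at least 2-fold lower. Over all 281 the median difference was 0.03, with quartiles at -0.39 and 0.45, and 146 lay above 0 and 135 below. The 4 libraries held 12066455 to 14087586 reads and the other 14 held 4358417 (strain 7) to 14943074 (strain 27). An exact two-sided permutation test of log2 reads over the 3060 ways to take 4 of 18 gave p = 0.0873. One more library stood apart among the 14: strain 28 had let-7c at 1.45% of its reads against 16.4% to 20.8% in the 4 strains, and miR-21 at 274 and miR-146b at 941 CPM, far below every other library.

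On the first principal component, which held 27.6% of the variance of the 281 miRNAs, strain 10 scored -13.03, strain 13 -8.55, strain 14 -7.12 and strain 20 -7.04. Just outside the set lay strain 23 at -2.53, and the remaining 13 reached up to 6.69 (strain 16). The 4 strains were the 4 lowest under each of 5 library scalings, and strain 23 came next under each. These scores are the rule by which the set was made. Measured as the root mean square log2 difference over the 281 miRNAs, the 6 pairs within the set were 0.42 to 0.92 apart (median 0.68), the 91 pairs within the other 14 were 0.55 to 1.10 apart (median 0.80), and the 56 pairs across were 0.63 to 1.32 apart (median 0.96). Strains 13 and 20 were the closest pair of the set, at 0.42. Strain 10 lay nearest to strain 13 at 0.69, and strain 14 lay nearest to strain 13 at 0.67, little nearer than to strain 24 outside the set at 0.72. Strain 23, outside the set, lay nearer to strain 13 (0.65) than strain 10 did, and nearer than strain 14 did. It was also nearer to strain 20, at 0.63, than strain 14 (0.67) or strain 10 (0.73). By distance, then, strains 13 and 20 form a close pair, and strains 10 and 14 are no closer to them than strain 23 is.

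The less abundant miRNAs took a smaller share of the reads in these 4 libraries. Rows with a mean under 1000 CPM held 2.18% to 2.56% of the reads in the 4 strains and 2.76% to 5.44% in the other 14, without overlap. Rows over 10000 CPM held 83.3% to 86.5% against 71.7% to 84.7%, which overlap. The 10 most abundant rows held 66.7% to 70.8% against 49.4% to 72.1%, which overlap as well. The correction factor per library was 0.671 to 0.776 in the 4 strains and 0.850 to 1.67 in the others. The choice of scaling therefore shifts the differences given here, by amounts that vary between miRNAs. From the main scaling to total counts alone, miR-27b moved from 0.06 to -0.28 and miR-16 from 0.57 to -0.20. The part that this shift has in the results was not tested beyond the 5 scalings.

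**Figure D1:**
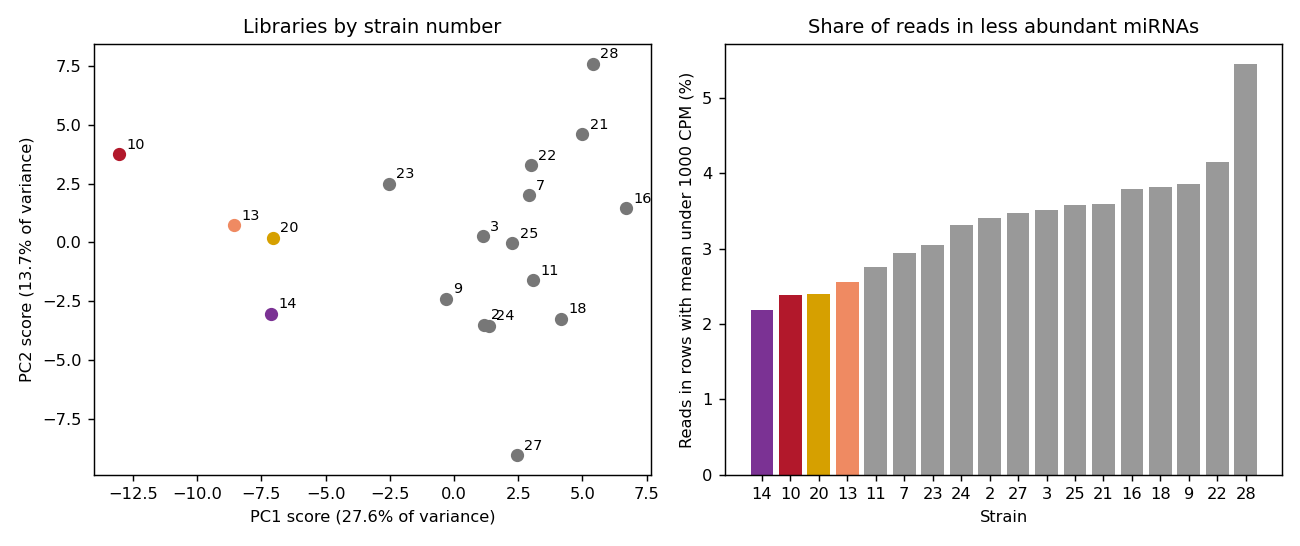
Left, scores of the 18 libraries on the first and second principal components (27.6% and 13.7% of the variance of log2(CPM + 1)), each point a strain by its number. Right, the percent of each library's reads in rows with a mean under 1000 CPM. The 4 coloured libraries sit at -7.04 or below on the first component and at 2.56% or below in the bars.

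Of the 281 miRNAs, 15 (5.34%) were higher in all 4 strains than in each of the other 14, and 16 (5.69%) were lower, 31 (11%) in either direction. Since the strains were picked on these values, the counts are a description. Leaving out strain 14 raised the lower count to 25, 14 of them among the 16, and the higher count to 22. Without strain 28 the counts were 12 higher (11 of the 15) and 18 lower (15 of the 16). Strain 10 had the highest value of the 4 in 13 of the 15 higher miRNAs. Strain 23, the nearest library on the first component, was the lowest of the others for 7 of the 16 lower miRNAs and the highest of the others for 5 of the 15 higher ones.

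miR-217, abundant in the acinar cells of the pancreas, stood at 155 CPM in strain 10, 90.9 in strain 13, 64.4 in strain 14 and 60.8 in strain 20, and at 1.71 to 50.1 CPM in the other 14 with a median of 5.80. All 4 strains lay above every other, and the difference of 3.51 log2 (11.4-fold) was the highest of the 281. The other 14 are themselves in 2 levels: strains 3, 21, 22, 23 and 28 lay at 40.7 to 50.1 CPM, close below the set, and 9 lay at 7.7 or lower, so the size of the fold rests on where the median of the 14 falls. miR-216a stood at 55.3, 34.2, 38.3 and 27.0 CPM in strains 10, 13, 14 and 20, and at 0.978 to 41.6 in the others with a median of 4.41 (difference 2.79). miR-216b stood at 26.4, 16.1, 14.5 and 12.8 CPM, against 0.855 to 33.1 with a median of 3.41 (difference 1.91). Both overlapped the other strains, strain 28 being the highest of the others. The hairpin of miR-217 lies at chr11:28763728-28763835 on the plus strand of GRCm38, within an intron of the lincRNA Gm12082, in GENCODE M21.

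miR-184, a miRNA of epithelia and of the lens, stood at 1783 CPM in strain 10, 779 in strain 13, 1351 in strain 14 and 665 in strain 20. The other 14 spanned 162 to 500.35 CPM with a median of 306, so the difference was 1.74 log2 (3.35-fold). It was the 1 miRNA that stayed above all others in each of 4 of the 5 scalings. miR-378, encoded in an intron of Ppargc1b and known for roles in energy metabolism, stood at 59896, 43409, 126608 and 44650.2 CPM in strains 10, 13, 14 and 20 against 14438 to 38916 with a median of 21335 (difference 1.28). Strain 14 held over 2 times the level of any other strain of the set. miR-421, from the X chromosome cluster it forms with miR-374, stood at 64.5, 60.4, 43.4 and 41.3 CPM against 12.2 to 36.2 (difference 1.16). miR-374 itself went the other way, at -0.54, and overlapped the other strains in the main scaling. miR-669c, of the large cluster in an intron of Sfmbt2, stood at 81.0, 62.5, 79.9 and 67.5 CPM against 20.8 to 53.4 (difference 1.02). Of the 10 tested members of this cluster, 8 lay above 0 and 2 below. Among them miR-297c was lower without overlap, at -1.25.

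miR-200c, which represses the transcription factors Zeb1 and Zeb2, stood at 26253, 24932, 22073 and 24262 CPM against 11094 to 20972 with a median of 14074 (difference 0.81). Its 4 values lay close together, within an SD of 0.10 log2. The other arms of its family did not separate: the miR-200b cluster on chromosome 4 had 5 tested arms with a median difference of 0.08 (-0.37 by total counts) and 0 without overlap. miR-103, which represses Dicer and acts on insulin signalling, stood at 16499.9, 15670 (15669.8), 11994 and 11964 CPM against 4962 to 11721, where strain 23 came within 0.03 log2 of the set. miR-107, with the same seed and a base sequence that differs from miR-103 at 1 of 23 positions, stood at 50.2, 39.3, 209 and 38.5 CPM against 22.6 to 78.9. Strain 14 was thus the highest of all 18 libraries in miR-107 and among the 2 lowest of the set in miR-103.

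The remaining higher miRNAs had differences of 0.37 to 1.08. They were miR-139-3p at 1.08, miR-30a* at 0.87, miR-183 at 0.84, miR-30e* at 0.76, let-7f at 0.69, miR-30d at 0.67, miR-30b* at 0.62 and miR-191 at 0.37. The last of these and miR-30d were just inside, with under 0.01 log2 between the set and the nearest other strain. let-7f stood at 128390 CPM in strain 10, 86818 in strain 13, 85285 in strain 14 and 88071 in strain 20, against 34475 to 76733 with a median of 54343. Strain 10 stood alone and the other 3 lay together.

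Among the lower miRNAs, miR-183* was farthest from the rest. It stood at 11.2 CPM in strain 10, 11.4 in strain 13, 9.71 in strain 14 and 14.1 in strain 20, and at 27.4 (strain 23) to 86.6 in the other 14 with a median of 59.1. The difference was -2.29 log2, with a gap of 0.91 log2 between the groups, the widest of the 31 miRNAs. miR-339-3p stood at 2.45, 2.58, 3.84 and 3.11 CPM against 6.35 to 23.7 (difference -1.99). miR-376a*, from the imprinted Dlk1-Dio3 region, stood at 0.927, 2.09, 4.41 and 5.23 CPM against 7.09 to 21.5 (difference -1.94), with as few as 8 reads in a library of the set.

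miR-190, in an intron of the talin gene Tln2, stood at 54.2, 62.9, 50.2 and 50.4 CPM against 78.6 (strain 23) to 230.2 with a median of 146 (difference -1.46). The 4 strains agreed within an SD of 0.15 log2. miR-24-2* stood at 50.9, 67.4, 99.0 and 88.4 CPM against 118 to 274 (difference -1.34), and miR-24-1*, with the same seed, at 6.28, 9.04, 6.45 and 8.03 CPM against 11.3 to 27.6 (difference -1.21). Both passenger arms of miR-24 thus lay below every other strain, from hairpins on chromosomes 8 and 13. The other members named by the ranking were miR-671-5p at -1.32, miR-345-5p at -1.27 and miR-297c at -1.25. miR-423-5p at -0.86, miR-188-5p at -0.70 and miR-15a at -0.69 completed the 16.

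**Figure D2:**
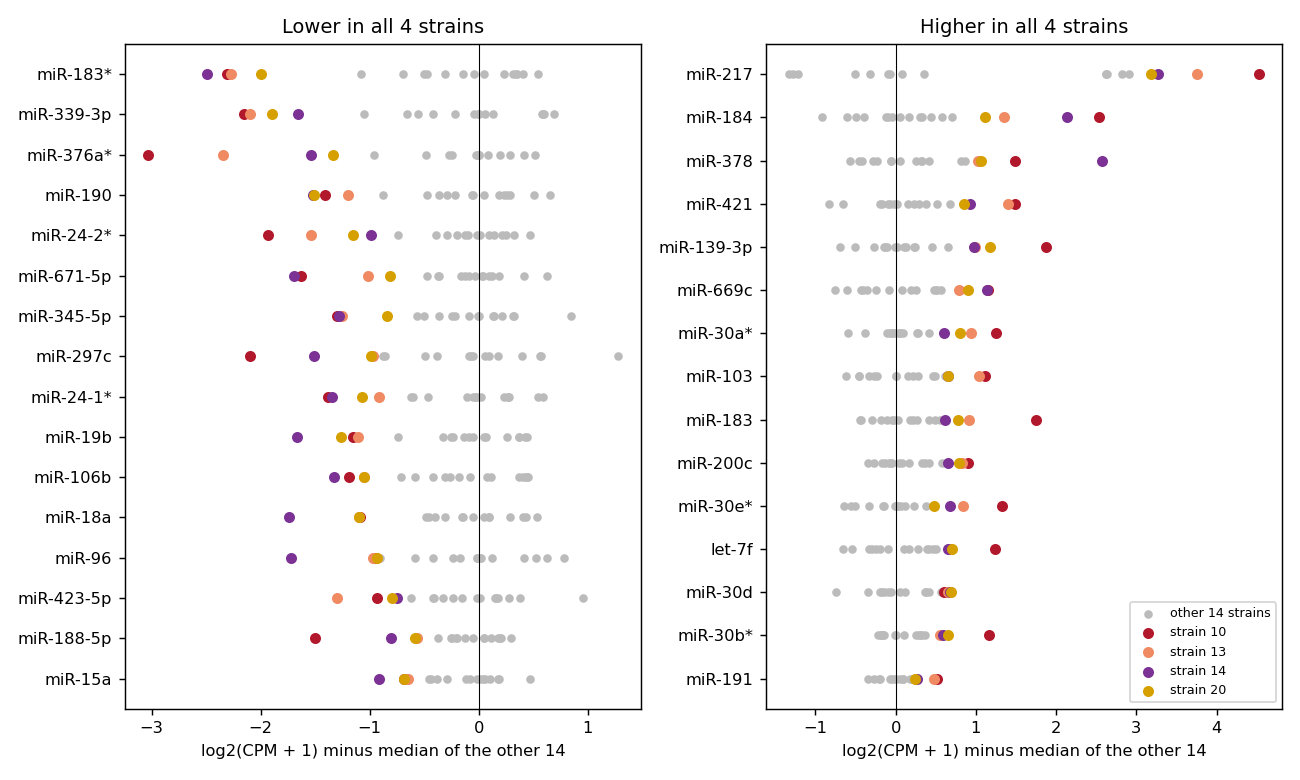
Each row is a miRNA without overlap between strains 10, 13, 14 and 20 (coloured points) and the other 14 (grey points). The horizontal axis is log2(CPM + 1) minus the median of the other 14. miR-217 at right shows the 2 levels among the other strains, and miR-183* at left the gap of 0.91 log2.

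The scaling decided how many miRNAs counted as higher. By total counts alone the median of all miRNAs moved to -0.50, and by total counts without the 10 most abundant rows to -0.39. On these scales 0 and 1 miRNAs (0% and 0.355%) were higher without overlap and 61 and 52 (21.6% and 18.4%) were lower. The upper quartile gave 13 higher and 13 lower (4.63% each), and the median of ratios 17 and 16 (6.07% and 5.71%). The share of higher among the separated miRNAs was thus 48.4% in the main scaling, 50% by the upper quartile, 51.5% by the median of ratios, 1.89% without the 10 most abundant rows and 0% by total counts. Of the main calls, 13 of the 15 higher miRNAs stayed above 0 by total counts, all but miR-191 at -0.21 and miR-30d at -0.02, and 14 of 15 did so without the 10 most abundant rows. All 16 lower miRNAs stayed below 0 under each of the 5 scalings. Of them 13 were without overlap under all 5, among them miR-183*, miR-106b, miR-18a, miR-19b, miR-190, miR-24-1* and miR-24-2*. None of the higher ones was without overlap under all 5, and 12 were so under the 3 scalings that centre on the bulk of the miRNAs.

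**Figure D3:**
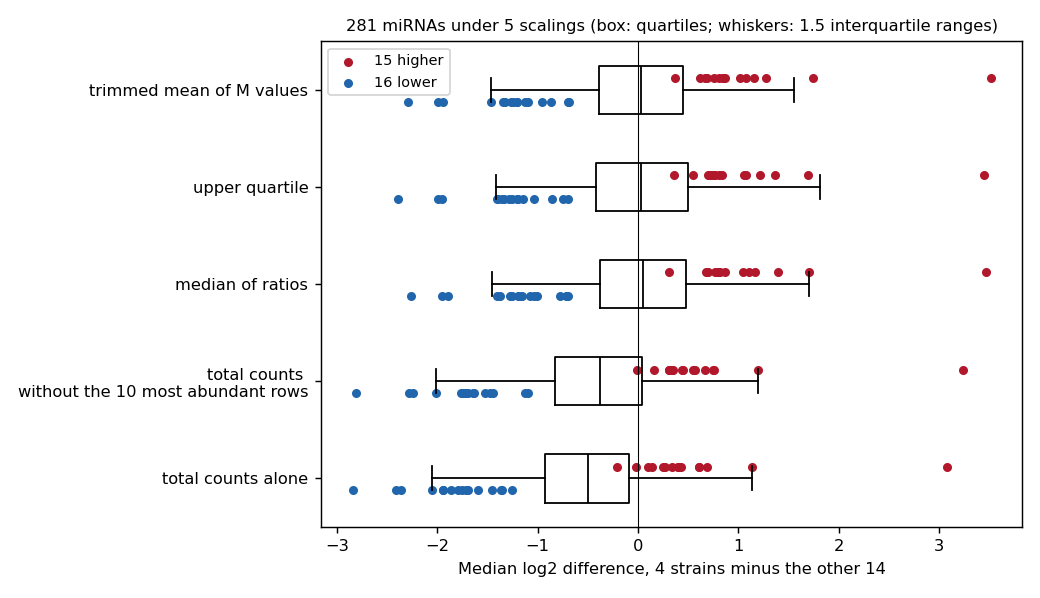
Boxes show the median log2 difference (4 strains minus the other 14) of the 281 miRNAs under each of 5 scalings, with quartiles and whiskers of up to 1.5 interquartile ranges; red and blue points are the 15 higher and 16 lower miRNAs of the main scaling. The boxes by total counts are centred at -0.50, and without the 10 most abundant rows at -0.38, and the blue points stay below 0 in every row.

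The miR-183 hairpin cluster split by arm and by member. The cluster lies on the minus strand of chromosome 6 in GRCm38, with miR-183 at chr6:30169668-30169737, miR-96 at chr6:30169446-30169551 and miR-182 at chr6:30165918-30165992, and no gene of the same strand covers them. The 3 hairpins are transcribed together and are known from sensory organs and from carcinomas. miR-183 stood at 18308, 10267, 8364 and 9322 CPM against 4016 to 8002 with a median of 5453, above every other strain. miR-182 stood at 31437, 20392, 12678 and 16919 CPM against 5681 to 15352 with a median of 11386 (difference 0.71), and strain 14 overlapped. miR-96 went the other way, at 385, 379, 224 and 387 CPM against 396 to 1275 with a median of 741 (difference -0.95). It was just inside, with 0.03 log2 to strain 2, and it overlapped by the upper quartile and by the median of ratios.

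The miR-106b-25 cluster, within Mcm7 on the minus strand of chromosome 5, also split. miR-106b stood at 879, 966, 798 and 966 CPM against 1223 to 2752 with a median of 2011 (difference -1.12), and the 4 values lay within an SD of 0.13 log2. miR-93, its neighbour with the same seed, stood at 6748, 4993, 3929 and 3812 CPM against 2880.3 to 5134 (difference 0.21), and miR-25 at 1128, 889, 755 and 620.1 CPM against 477 to 937 (difference 0.30). Both overlapped the other strains, and both turned below 0 under the 2 scalings by total counts (-0.28 and -0.14 for miR-93, -0.35 and -0.25 for miR-25), where they stayed above the shifted median of all miRNAs.

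In the miR-17-92 cluster, on chromosome 14 in exons of Mir17hg, 7 of 8 tested arms lay below 0, with a median of -0.33 against 0.03 over all 281. Lower without overlap were 2 of the 8, against 16 (5.69%) of the 281. miR-17 and miR-17* were close to 0, each at -0.03. By the upper quartile miR-17 lay at 0.007, and by the median of ratios miR-17* lay at 0.053. miR-18a stood at 226, 224, 143 and 224 CPM against 344 to 698 with a median of 481 (difference -1.10). miR-19b stood at 125, 129, 87.4 and 116 CPM against 168 to 380 with a median of 280 (difference -1.21). miR-17 itself did not separate, at 1068, 927, 622 and 830 CPM against 621 to 1014 with a median of 898, nor did miR-20a (difference -0.31) or miR-92a (-0.35). The tested arms listed under the cluster thus ranged from -1.21 for miR-19b to 0.71 for miR-20a*.

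The miR-29 family, whose guides are known for repressing collagen genes and DNA methyltransferases, lay low in strains 10, 13 and 20 and less so in strain 14. miR-29a stood at 714 CPM in strain 10, 1117 in strain 13, 1687 in strain 14 and 1050.2 in strain 20, and at 1212 to 2621 in the other 14 with a median of 1684 (difference -0.64). Strain 14 lay at the median of the others, and the remaining 3 lay below all of them. miR-29b stood at 96.3, 177, 247 and 153 CPM against 170 to 555 with a median of 371 (difference -1.17). miR-29c stood at 19.6, 33.3, 72.0 and 31.7 CPM against 41.8 to 102 with a median of 61.5 (difference -0.90), and strain 14 lay above that median. All 4 tested arms of the family, miR-29a* at -1.14 included, had differences below 0 under all 5 scalings. By the main scaling 0 of 4 were without overlap. By total counts miR-29a* and miR-29b were lower without overlap, and without the 10 most abundant rows miR-29a and miR-29a* were.

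**Figure D4:**
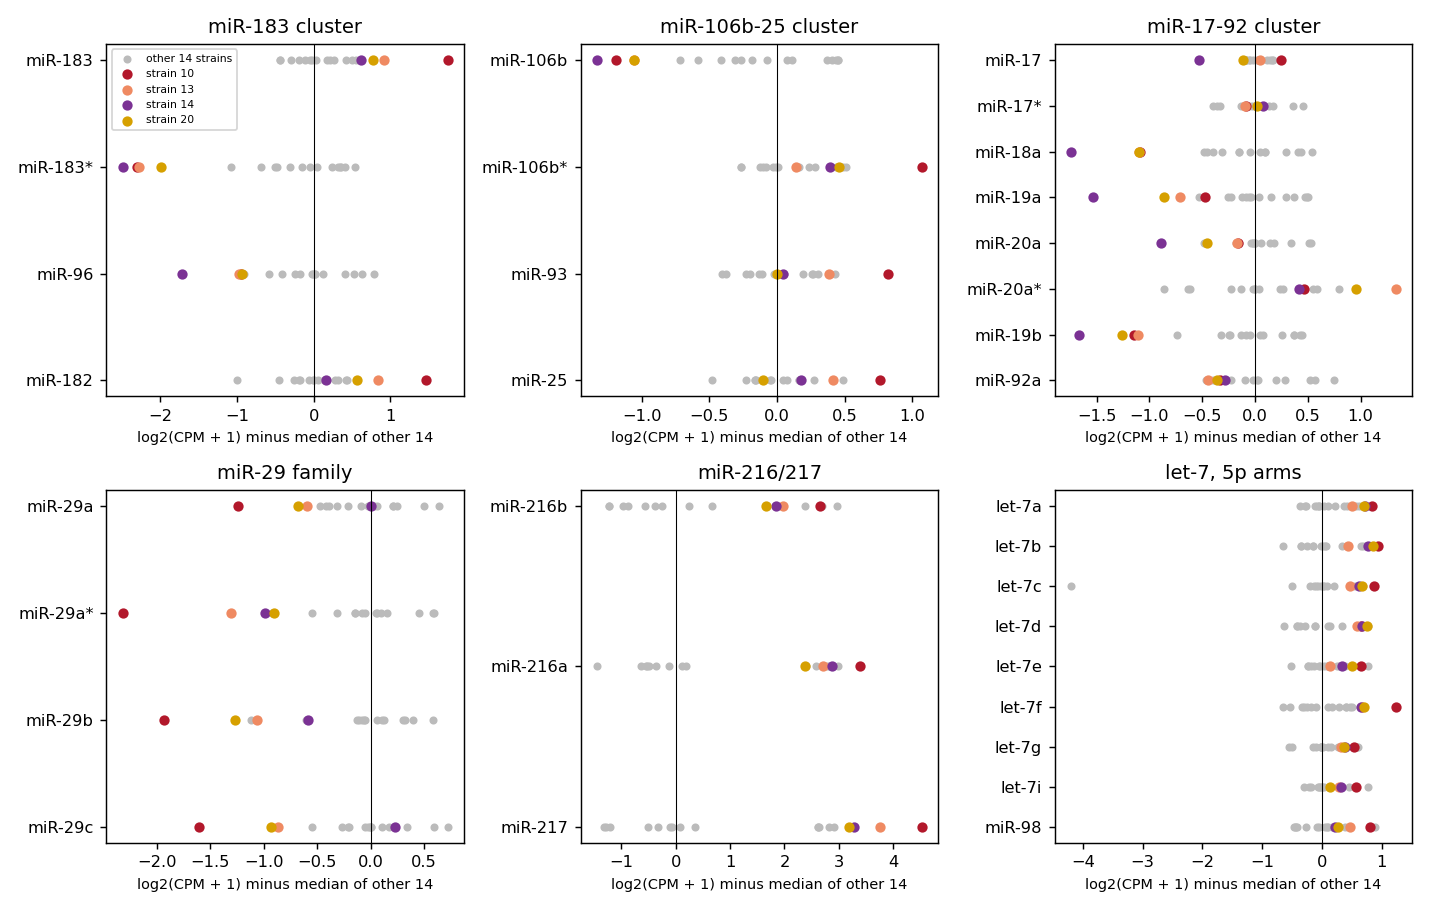
Values of 6 clusters or families, 1 row per miRNA, as log2(CPM + 1) minus the median of the other 14; coloured points are strains 10, 13, 14 and 20, grey points the other 14. miR-183 and miR-183* lie on opposite sides, miR-106b lies apart from miR-93 and miR-25, and strain 14 lies with the other strains for miR-29a and miR-29c.

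Grouped by seed, 27 families had at least 2 tested members, and in 14 of them all members lay on 1 side of 0. The let-7 seed, GAGGUAG, had 9 of 9 members above 0 with a median of 0.65, of which let-7f was without overlap. By total counts let-7a, let-7b, let-7c and let-7f stayed above 0 (0.06 to 0.12) and let-7d, let-7e, let-7g, let-7i and miR-98 lay below it (-0.03 to -0.27), all 9 above the shifted median of -0.50. Without the 10 most abundant rows 7 of 9 stayed above 0, and let-7g and let-7i did not. The miR-30 list, guides and passenger arms together, had 10 tested members with a median of 0.59; 8 lay above 0 and 4 were higher without overlap, miR-30a*, miR-30b*, miR-30d and miR-30e*. Its median by total counts was -0.08. The seed CAGUGCA, of miR-148a, miR-148b and miR-152, had 3 of 3 members above 0 with a median of 0.45. By total counts 1 of the 3 stayed above 0, with miR-148b at -0.10 and miR-152 at -0.17.

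On the lower side the seeds UGCCUAC (miR-24-1* and miR-24-2*) and GUGCAAA (miR-19a and miR-19b) had medians of -1.28 and -0.997 with both members below 0. AAAGUGC, the seed of miR-17, miR-20a and miR-106b, had 5 of 6 members below 0, with miR-93 above. AGCAGCA, the seed of the miR-15 and miR-16 family, was split 3 and 3: miR-15a was lower without overlap at 131.6, 136, 112 and 132 CPM against 155 to 294, while miR-16 (difference 0.57) and miR-15b (0.49) lay above 0. By total counts this seed had 1 member above 0 and 5 below (miR-16 at -0.20, miR-15b at -0.22), and AAAGUGC had 6 of 6 below. Members lay on both sides of 0 in 13 of the 27 families by the main scaling, and in 9 to 12 by the other 4.

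The arms of a hairpin did not always move together. The log2 ratio of the more to the less abundant arm is free of library scaling apart from the pseudocount of 1 CPM, and it was taken for the 56 hairpins with both arms tested. All arm ratios given below are ratios of CPM + 1, which pulls them towards 1, most where the less abundant arm is scarce. In 13 (23.2%) the ratio of all 4 strains lay outside the range of the other 14, higher in 7 (12.5%) and lower in 6 (10.7%). The signs of the arms' own differences do depend on the scaling. The arms of 27 hairpins had differences of opposite sign by the main scaling, and those of 21 (total counts) to 32 (upper quartile) by the others. Of the 12 hairpins with both arms past 0.5 log2, 8 had arms of opposite sign, against 1 of 15 by total counts and 1 of 12 without the 10 most abundant rows. Of the 12 hairpins with an arm that was higher or lower without overlap, 0 had both arms so in the same direction, and miR-183 had them in opposite directions. Over all 281 miRNAs, 31 (11%) were without overlap, so pairs of such arms would be few in any case, and the 0 is a description.

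For miR-183 the ratio of the guide to the other arm, in CPM + 1, was 1506 in strain 10, 826 in strain 13, 781 in strain 14 and 618 in strain 20. It was 64.8 to 230.5 in the other 14 with a median of 92.3. The groups are far apart, by 3.12 log2 at the medians. For miR-126, a miRNA of endothelial cells encoded in Egfl7, the ratio of the 3p to the 5p arm was 22.3, 16.3, 14.7 and 16.1 in the 4 strains and 5.58 to 14.2 in the others with a median of 7.64 (difference 1.08). The 3p arm was higher by 0.56 log2 and the 5p arm lower by 0.60 log2, each overlapping; by total counts the 3p arm was at 0.018. Ratios were also higher for miR-376a (difference 1.96), miR-339 (1.33), miR-151 (1.06), miR-345 (1.01) and miR-378 (0.98).

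The ratio was lower for miR-342, encoded in an intron of Evl and abundant in lymphoid cells: its 3p arm exceeded the 5p arm 0.886, 1.53, 2.18 and 1.41 times in the 4 strains and 3.05 to 9.00 times in the others (difference -2.02). miR-342-3p stood at 28.3, 85.4, 63.1 and 84.2 CPM against 74.4 to 306, and miR-342-5p at 32.0, 55.6, 28.4 and 59.6 CPM against 12.4 to 59.2, so that in strain 10 the usually minor arm was the more abundant. The difference of miR-342-5p was 0.57 by the main scaling and -0.030 by total counts. For miR-139, the 5p arm exceeded the 3p arm 0.504, 1.10, 1.37 and 0.675 times in the 4 strains and 1.49 to 4.64 times in the others (difference -1.93). For miR-106b the ratio was 9.23, 19.3, 13.4 and 15.5 against 21.8 to 68.7 (difference -1.56). The other 3 lower ratios were those of miR-30b (-1.25), miR-503 (-1.04) and miR-27a (-0.37). Leaving out each strain in turn gave 13 to 18 hairpins without overlap.

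**Figure D5:**
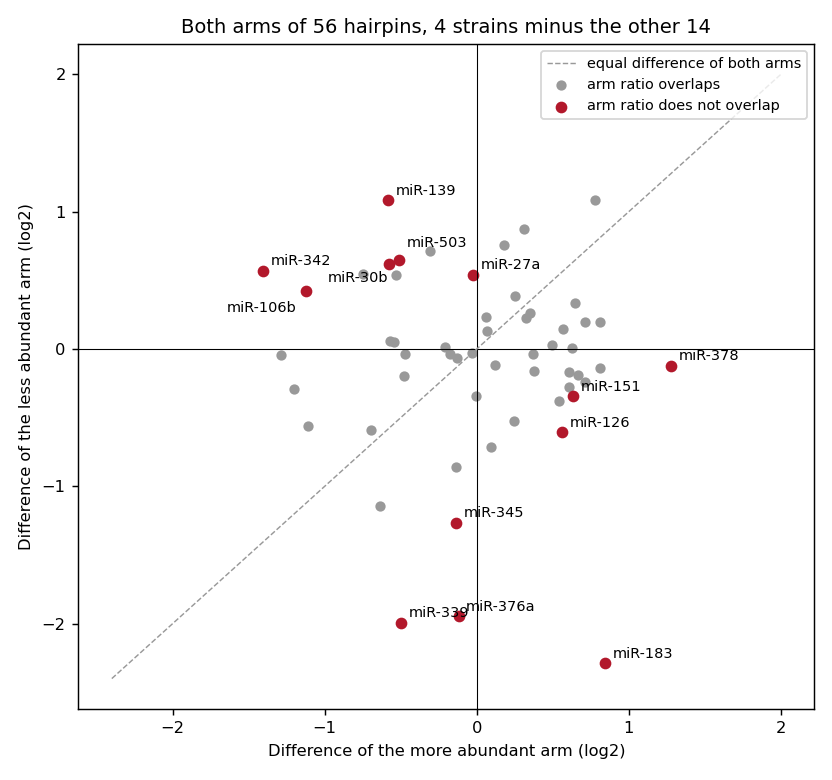
Each point is a hairpin with both arms tested (56 in all), with the difference of its more abundant arm on the horizontal axis and of its less abundant arm on the vertical axis, both in log2, 4 strains minus the other 14. The 13 red hairpins have arm ratios without overlap and lie away from the dashed line of equal difference, miR-183 the farthest at 0.84 and -2.29.

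The higher and lower miRNAs differed in abundance. Of the 18 miRNAs with a mean over 10000 CPM the median difference was 0.64, with 3 higher and 0 lower without overlap. For the 46 at 1000 to 10000 CPM it was 0.22 (6 higher, 1 lower), for the 75 at 100 to 1000 CPM -0.03 (1 and 6) and for the 142 at 10 to 100 CPM -0.12 (5 and 9). Across the 206 miRNAs with a sequence, Spearman's rho of the difference was -0.05 with the percent of G and C together, 0.30 with that of G alone, -0.26 with that of C alone and -0.04 with length. Pearson's r was -0.07, 0.22, -0.26 and -0.02 in the same order. By first base, the 19 miRNAs that begin with G had a median of -0.37, with 0 higher and 5 lower without overlap. The medians were 0.05 for the 51 with A (1 and 1), 0.01 for the 35 with C (3 and 1) and -0.02 for the 101 with U (6 and 8). Over all 206, 10 were higher and 15 lower. The 5 with G were miR-183*, miR-345-5p, miR-376a*, miR-24-1* and miR-24-2*, and the last 2 share a seed. All points share the same 18 libraries, and many share seeds and hairpins, so these are descriptions.

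Cell type lists moved unevenly among the 4. In pooled tumour RNA, fewer cells of a type and less RNA per cell cannot be told apart. The 5 tested skeletal muscle miRNAs had a median of 0.54 and 0 without overlap, and their summed level was 36560 CPM (36559.8) in strain 10, 169931 in strain 13, 303086 in strain 14 and 154117 in strain 20 against 22342 to 161470 (161470.0) in the others. By this sum, strains 13 and 14 lay above all other libraries and strain 10 among the low ones. The bulk of it was miR-1, at 35368, 164269, 290869 and 148117 CPM. Of the 5, 3 had differences above 0 and 2 below, miR-133a at -0.75 and miR-133b at -0.62. In strain 13, miR-133a stood at 158 CPM, below the others' median of 282. The 7 tested leukocyte miRNAs had a median of -0.29 and 0 without overlap, with summed levels of 1633, 2350.3, 6704 and 2300 CPM against 2438 to 18460. By this sum, strains 10, 13 and 20 lay below every other library and strain 14 above the others' median of 5136. The bulk of it was miR-142-3p, at 1361, 1986, 5793 and 1933 CPM. Of the 7, 6 had differences below 0 and 1 above, miR-342-5p. Members did not all follow the sum: miR-155 stood at 91.2, 71.3, 131 and 63.8 CPM, against 54.8 in strain 25. The pancreas list, miR-216a, miR-216b and miR-217, summed to 237, 141, 117 and 101 CPM against 3.91 to 122. The parts of muscle, leukocytes and pancreas in the differences above were not tested.

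Luminal epithelial miRNAs (miR-141, its other arm, miR-200c and miR-375) summed to 38956, 35131, 28275 and 35625 CPM against 17210 (17209.5) to 34216, with miR-200c the bulk of it and 1 of 4 without overlap. The members did not move together: 3 lay above 0, with miR-375 at 0.03, and 1 below, miR-141* at -0.38. By total counts, where the median of all miRNAs was -0.50, miR-375 was at -0.63. On that scale miR-141* was at -0.81, lower without overlap. The basal pair miR-203 and miR-205 had differences of -0.37 and -0.29. In the endothelial pair, the summed level of both miR-126 arms was 17239, 16287, 22301 and 16195 CPM against 8286 to 19482, and the mesenchymal list, with miR-199 and miR-214, had a median of -0.19 and 0 of 4 without overlap. The markers of other tissues in these lists were present in all 4 strains, and their part in the results was not tested.

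The 4 strains were not alike in every miRNA. miR-150, a miRNA of mature lymphocytes, spread most among them, at 4.53 CPM in strain 10, 14.8 in strain 13, 226 in strain 14 and 13.9 in strain 20, a range of 5.36 log2, against 13.8 to 313 in the others. miR-196a, encoded in the Hox clusters, stood at 19.4, 233, 26.5 and 412 CPM, high in strains 13 and 20 and low in strains 10 and 14, a range of 4.34 log2. miR-133a, of skeletal muscle, stood at 23.3, 158, 468 and 176 CPM, a range of 4.27 log2, with strain 10 below every other library. miR-122, the main miRNA of the liver, stood at 182, 57.9, 375 and 89.0 CPM against 1.56 to 166. As SDs over the 4 strains, miR-150 had 2.30 log2 and miR-133a 1.79. The 16 lower miRNAs had SDs of 0.12 to 0.78 log2, and miR-30d, the least spread of the higher ones, one of 0.04. Other higher ones spread more, such as miR-378 from 43409 CPM in strain 13 to 126608 in strain 14. A lack of overlap favours miRNAs with little spread among the 4, so low SDs are in part built into that choice.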

How the data were processed

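Per the labels, total RNA was extracted from frozen tumours (mirVana kit), and an Illumina Genome Analyzer IIx read the small RNA libraries. The submitters' processing notes list BWA and mm9 and say nothing of their use. The labels used here name no counter, miRNA annotation or filter. The authors deposited log2 values for 583 mature miRNA rows and 18 libraries. Once linearised, values were whole multiples of a constant that each library has of its own, so reads could be read back: this held for 3813 of 3813 values up to 50 reads, within 0.006 log2 (100%), with constants of 1.00 to 1.386. A row without reads is written as 0.

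Linearised values kept 0 at 0, and 20 rows in 8 identical sets entered once per set (571 rows left). CPM used TMM factors (trimmed mean of M values), with 30% trimmed by log ratio and 5% by abundance. Comparisons took the 281 rows whose mean reached 10 CPM, on log2(CPM + 1), which understates differences of low miRNAs. The deposited constants of the 4 strains gave p = 0.383 against the others in an exact two-sided permutation test. The rule for named miRNAs took miR-217, miR-216a, miR-216b, the miR-29 family, the 12 highest and 12 lowest differences without overlap, the 5 most abundant miRNAs, the 2 to 4 most abundant members of each list described and the 5 hairpins with the largest differences of arm ratio in each direction; miR-191, miR-423-5p, miR-188-5p, miR-15a, miR-150 and some members of seed families and clusters were named after their values were seen. The members, the 45 lists and the comparisons were chosen with earlier results of these data known. Old row names were matched to RefSeq arms by hand, and hairpin places are from GENCODE M21 on GRCm38, since the table has no coordinates. Alternatives were 4 other scalings, filters of 1 and 100 CPM, pseudocounts of 0.5 and 5 CPM, differences of means, identical rows all counted, and each strain left out. The scripts were tested on simulated reads. Python 3.11.15 with numpy 2.4.6, pandas 2.3.3, scipy 1.17.1 and matplotlib 3.10.9 was used.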

Additional observations from a re-analysis of the deposited data

Results flagged for a closer look

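Among 160 named miRNAs, 14 (8.75%) had a strain of the 4 set apart from the other 3 by Dixon's test on log2(CPM + 1) of the 4 strains. The test takes the gap as a share of the range of the 4, so a flagged gap can be small. For miR-26a, strain 20 lay at 6730 CPM and the other 3 at 7674 to 7859. The values below are CPM. Chance flags about 1 in 20 groups. In strain 14, 9 were marked. They were low there for miR-18a at 143 CPM, miR-96 at 224, miR-15a at 112, miR-200a at 3281, miR-429 at 3517, miR-379 at 942 and miR-411 at 236. High in strain 14 were miR-142-5p at 425 CPM and miR-107 at 209. Strain 10 was high for let-7f at 128390 CPM and miR-30b* at 157. Strain 20 was high for miR-345-5p at 17.0 CPM and low for miR-26a at 6730 (6729.95) CPM. Strain 13 was high for miR-34c at 1257 CPM.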

How the results depend on the processing

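Total counts alone gave 0 higher and 61 lower miRNAs and total counts without the 10 most abundant rows gave 1 and 52, since both scalings shift all differences down. A minimum of 100 CPM left 139 miRNAs and 7 lower ones. miR-30d turned to -0.015 by total counts, and miR-191 to -0.21 by total counts and -0.012 without the 10 most abundant rows. Leaving out each strain in turn gave 12 to 22 higher miRNAs, 16 to 25 lower ones and 13 to 18 hairpins without overlap, with the highest lower count when strain 14 was left out. The remaining counts stayed within 1.5 times the main count under the other filters, pseudocounts and scalings that were run. Single miRNA values moved by more than the spread between strains, or changed sign without overlap, in 78.8% of the named miRNAs by total counts, 57.5% without the 10 most abundant rows, 1.25% with a pseudocount of 5 CPM and 0% under the other alternatives besides left-out strains. List medians did so in 16.4% of 434 cases. Of the 160 named miRNAs, 46 changed sign by total counts, 35 without the 10 most abundant rows and at most 6 under each other alternative; 3 of these changes were in miRNAs without overlap, those given above. No paired analysis was possible because each strain has 1 library and the labels give no replicate numbers. With n = 1 per strain, strain, pool and library differences cannot be told apart, and read counting limits miR-376a* most, with 8 reads in its smallest library.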
